A study of Mus musculus with 6 samples.

Results

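The genes described here carry out mitochondrial fatty acid oxidation and ketone use, and 36 were listed by their place in the pathway, from the activation of fatty acids to the carboxylation of propionyl-CoA. They were taken from the deposited array values through the platform annotation, with the highest-mean probe set kept for each gene symbol. The list names genes by pathway step, but it was drawn up with earlier results of these data known. Of the 36, 33 were measured among 22180 genes in all. Acsl3 and Cpt1b lie on probe sets shared with other genes and Acsl1 is not listed in the annotation, so these 3 are not analysed here. Each of 6 arrays held RNA of intact inguinal mammary gland from C57BL/6J mice aged 4 weeks, with epithelium and stroma together. The groups were littermates, 3 biological replicates with the genotype Mt1-mmp(+/+) (wild type) and 3 with Dermo1Cre/Mt1-mmp(fl/fl) (stromal knockout). Mt1-mmp, now Mmp14, encodes a membrane-anchored matrix protease. Dermo1 (Twist2) is active in mesenchymal cells, from which the Cre recombinase removes the floxed gene. Cre occurs only together with the floxed allele, so its own effect and that of the deletion cannot be told apart.

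Values are log2 signals. A value after ± is the SD of 3 arrays beside a group mean and the standard error of the limma fit beside a difference. A difference is always knockout minus wild type, and a gene rose or fell where its limma p, adjusted by Benjamini-Hochberg over all 22180 genes, was under 0.05. Mmp14 fell from 10.88 ± 0.32 to 8.62 ± 0.11, leaving 21% of its signal (limma adjusted p = 0.000454), and its groups did not overlap. Array medians over all probe sets were 3.85 to 3.89 in wild type and 3.77 to 3.78 in the knockout. Over the 22180 genes they were 4.64 to 4.71 in wild type and 4.45 to 4.53 in the knockout. Every knockout median thus lay below every wild-type median, and the cause was not tested.

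In mitochondrial fatty acid oxidation, a fatty acid is first joined to coenzyme A by an acyl-CoA synthetase and is then carried into the mitochondrion as a carnitine ester. Inside, a cycle of dehydrogenation, hydration, a further dehydrogenation and thiolysis shortens the chain by an acetyl unit per turn. The electrons of the first dehydrogenation pass through the electron transfer flavoprotein to ubiquinone and the respiratory chain. Brown and beige adipocytes burn fatty acids in this way to make heat, whereas white adipocytes mainly store them.

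Most of the pathway lay higher in the knockout gland. Of the 33 measured members, 24 rose, or 72.7%, against 5.05% of all genes. The members had a median difference of 0.68 log2 units, against 0.03 over all genes, and a range from -0.40 (Acsl4) to 1.47 (Acaa2). No member fell by limma, against 7.20% of all genes; 1 was lower at an unadjusted p under 0.05. Over all genes 1121 rose and 1596 fell. With each array centred on its median over the genes, which lay lower in the knockout, 3155 rose and 1178 fell, and 28 members rose. All 3 knockout arrays lay above all 3 wild-type arrays in 28 members (17.2% of all genes do), also in 4 whose difference did not pass. In whole tissue, more cells of a type and more of an RNA per cell cannot be told apart. Leaving out any 1 array left between 16 and 23 members that rose, and 15 of the 24 rose in all 6 such fits.

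**Figure D1:**
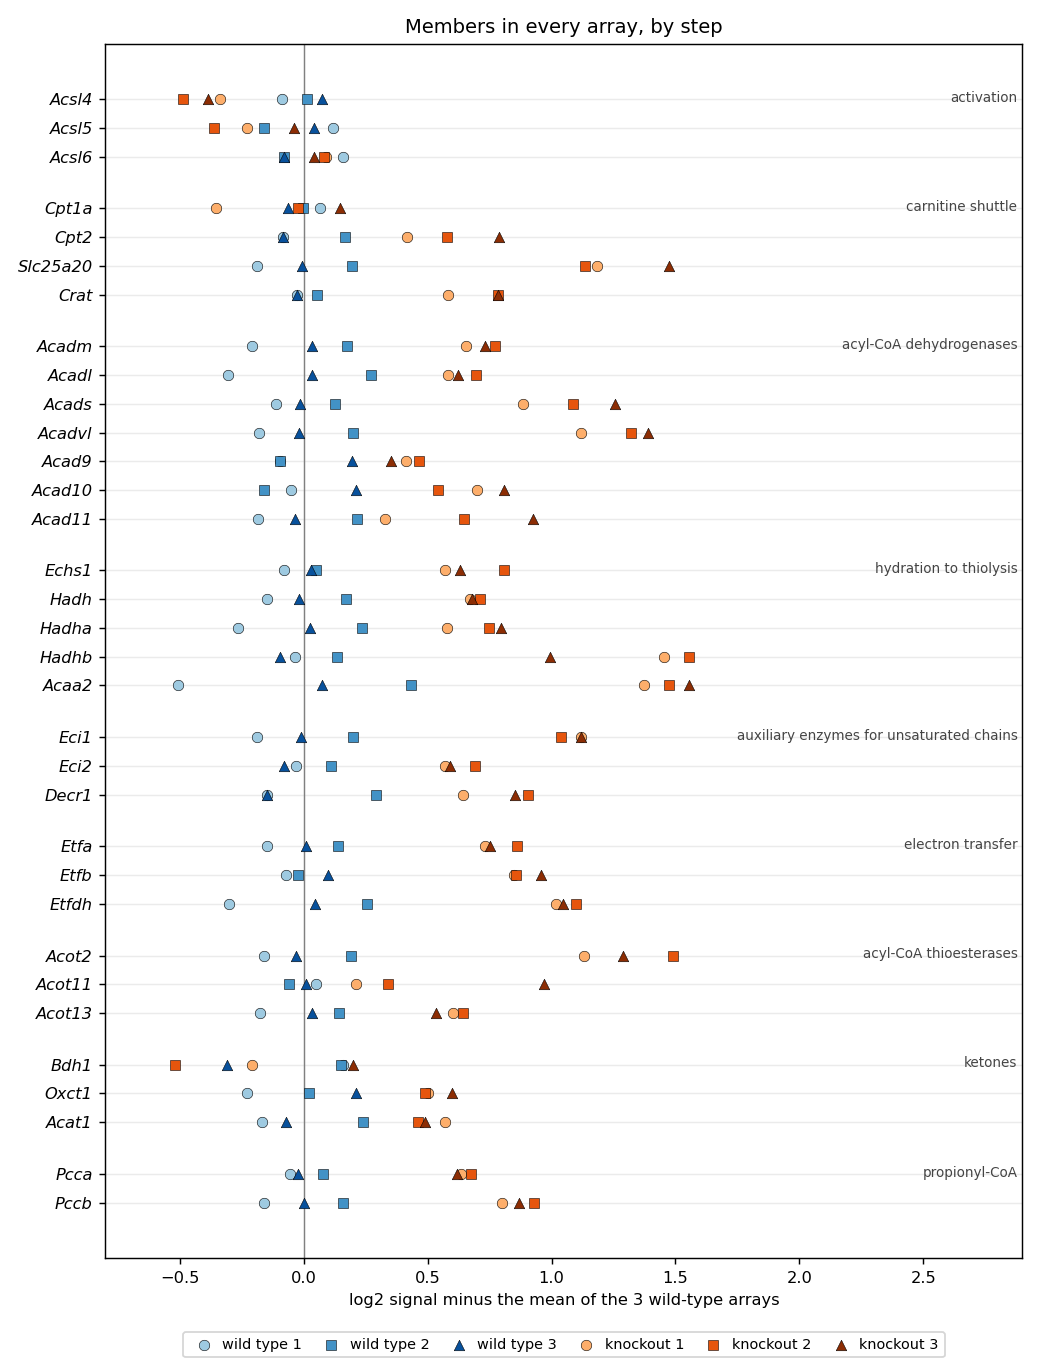
Log2 signal of each measured member in each of the 6 arrays, minus the mean of the 3 wild-type arrays, ordered by step (blue, wild type; orange and brown, knockout). The 3 knockout arrays lie to the right of all wild-type arrays in 28 of the 33 members. The exceptions are the 3 measured acyl-CoA synthetases, Cpt1a and Bdh1.

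Of the 5 listed genes of activation, the 3 measured ones did not share in the rise, and Acsl1 and Acsl3 were not measured. Acsl4, which prefers arachidonic acid and other polyunsaturated chains, read 7.64, 7.74 and 7.80 in wild type and 7.39, 7.24 and 7.34 in the knockout. All 3 knockout arrays were thus lower, but the difference of -0.40 ± 0.11 did not pass (limma adjusted p = 0.0557). It did pass with the lowest genes left out (0.0319), with an intensity trend (0.0194) and with array weights (0.0418). Acsl5, another long-chain synthetase, read 7.87, 7.59 and 7.79 in wild type and 7.52, 7.39 and 7.71 in the knockout, and these groups overlapped (difference -0.21 ± 0.14, limma adjusted p = 0.375). Acsl6, known chiefly from brain, lay between 3.10 and 3.34 in all 6 arrays. Its difference of 0.07 ± 0.12 had a 95% confidence interval from -0.20 to 0.35.

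Of the 5 listed genes of the carnitine shuttle, 4 were measured, and 3 of these rose. Cpt1b was not measured, so among the members carnitine palmitoyltransferase 1 is represented by Cpt1a alone. Carnitine palmitoyltransferase 1, on the outer membrane, is the step that malonyl-CoA inhibits, and its liver-type gene Cpt1a read 7.81, 7.74 and 7.68 in wild type. The knockout arrays of Cpt1a gave 7.39, 7.72 and 7.89 and so lay on both sides of the wild-type values. The difference was -0.08 ± 0.15 with a 95% confidence interval from -0.43 to 0.27 (limma adjusted p = 0.789), and 0.06 without knockout 1. Slc25a20, the carrier that exchanges acylcarnitines for carnitine across the inner membrane, rose most in this step. Its values were 8.08, 8.46 and 8.26 in wild type and 9.45, 9.40 and 9.74 in the knockout, with 0.94 log2 units between the closest arrays of the groups. This was a rise of 1.26 ± 0.15, or 2.4-fold (limma adjusted p = 0.00233). Cpt2, which returns the acyl chain to coenzyme A inside the inner membrane, read 9.46, 9.71 and 9.46 against 9.96, 10.12 and 10.33. It rose by 0.60 ± 0.14 (limma adjusted p = 0.0327), but missed the threshold when wild type 1 or 3 or knockout 2 or 3 was left out (0.0813 to 0.107), and with repeated quantile normalization (0.0534). Crat, which buffers acetyl-CoA as acetylcarnitine, was tight within groups, at 10.03, 10.11 and 10.03 in wild type and 10.64, 10.84 and 10.84 in the knockout. It rose by 0.72 ± 0.11 (1.64-fold, limma adjusted p = 0.00756).

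The acyl-CoA dehydrogenases, which open each turn of the cycle, differ in the chain length they accept, and those for very long, long, medium and short chains all rose. Acadvl, for very long chains and bound to the inner membrane, read 8.31, 8.69 and 8.47 in wild type and 9.61, 9.81 and 9.88 in the knockout. It rose by 1.27 ± 0.14, or 2.42-fold (limma adjusted p = 0.0019). Acads, for short chains, read 8.66, 8.90 and 8.76 against 9.66, 9.86 and 10.03, a rise of 1.07 ± 0.14 (limma adjusted p = 0.00316). The long-chain Acadl and the medium-chain Acadm lay high in both groups and rose less. Acadm went from 11.19, 11.57 and 11.43 to 12.05, 12.17 and 12.13, a rise of 0.72 ± 0.13 (limma adjusted p = 0.0123; 0.0511 without knockout 2). Acadl went from 11.16, 11.74 and 11.50 to 12.05, 12.16 and 12.09, a rise of 0.63 ± 0.16 (limma adjusted p = 0.0398). The Acadl call was lost without any 1 array other than wild type 2 (0.0846 to 0.118), and with repeated quantile normalization (0.0546). The highest signals on the arrays were 13.31 to 13.41.

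Of the other 3 dehydrogenases of the family, Acad10 rose, and Acad9 and Acad11 did not pass. Acad10 rose from 6.42 ± 0.19 to 7.10 ± 0.14 (difference 0.68 ± 0.14, limma adjusted p = 0.0196), but did not pass when wild type 1 or 2 or knockout 1 or 3 was left out (0.0555 to 0.0705). Acad9, which also serves the assembly of respiratory complex I, read 6.84, 6.84 and 7.13 against 7.35, 7.40 and 7.29. Its groups did not overlap, but the difference of 0.41 ± 0.13 did not pass (limma adjusted p = 0.0737). Acad11 read 8.69, 9.09 and 8.84 against 9.20, 9.52 and 9.80, a difference of 0.63 ± 0.18 (limma adjusted p = 0.0623) that passed at 0.79 without knockout 1 (0.0397). With an intensity trend, both Acad9 (0.0354) and Acad11 (0.0181) passed.

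The cycle's later enzymes, from hydration to thiolysis, all rose, 5 of 5. Acaa2, the thiolase that releases acetyl-CoA, had the largest rise of any member, by 1.47 ± 0.22 (2.76-fold, limma adjusted p = 0.0064). Its wild-type arrays were spread, at 8.66, 9.60 and 9.24, whereas the knockout arrays lay close together at 10.54, 10.64 and 10.72. Echs1, the enoyl-CoA hydratase for short chains, went from 9.38, 9.51 and 9.49 to 10.03, 10.27 and 10.09 (difference 0.67 ± 0.12, limma adjusted p = 0.0105). Hadh, the hydroxyacyl-CoA dehydrogenase for short and medium chains, went from 11.12, 11.44 and 11.25 to 11.94, 11.98 and 11.95 (0.69 ± 0.12, limma adjusted p = 0.0111). No knockout array of Echs1 or Hadh reached down to a wild-type value.

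Hadha and Hadhb encode the α and β subunits of the mitochondrial trifunctional protein, which performs the last 3 reactions on long chains. Hadha read 10.45, 10.95 and 10.74 in wild type and 11.29, 11.46 and 11.51 in the knockout, a rise of 0.71 ± 0.15 (limma adjusted p = 0.0233). Hadha no longer passed when wild type 1 or 3 or knockout 2 or 3 was left out (0.0635 to 0.079). Hadhb, on a probe set of lower signal, read 4.18, 4.35 and 4.12 against 5.67, 5.77 and 5.21, a rise of 1.33 ± 0.17 (2.52-fold, limma adjusted p = 0.00293). The RefSeq starts of these genes face away from each other with 272 bases between them, so a single stretch lies upstream of both. It is shown because both genes rose, as the 250 bases before the Hadhb start on its strand, chr5:30155003-30155252 of GRCm38.p6 (+), 5′ to 3′. Capitals mark GC boxes (GGGCGG, either strand), of which this stretch holds 2.
Hadhb: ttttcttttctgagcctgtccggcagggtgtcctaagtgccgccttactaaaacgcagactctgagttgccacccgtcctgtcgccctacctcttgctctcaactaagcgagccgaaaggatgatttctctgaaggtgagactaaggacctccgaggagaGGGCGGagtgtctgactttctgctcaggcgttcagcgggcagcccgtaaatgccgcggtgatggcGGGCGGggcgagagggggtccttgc
The Hadha window on the other strand shares 228 of its 250 bases with this one.

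The enzymes that prepare unsaturated chains for the cycle also rose, 3 of 3. The enoyl-CoA isomerase Eci1 read 8.54, 8.93 and 8.72 in wild type and 9.85, 9.77 and 9.85 in the knockout, a rise of 1.10 ± 0.13 (2.14-fold, limma adjusted p = 0.00247). Eci2, an isomerase found in mitochondria and peroxisomes, read 7.97, 8.11 and 7.92 against 8.57, 8.69 and 8.59, a rise of 0.62 ± 0.11 (limma adjusted p = 0.0127; 0.0557 without knockout 2). Decr1, the dienoyl-CoA reductase, rose by 0.80 ± 0.16, from 7.29 ± 0.25 to 8.09 ± 0.13 (limma adjusted p = 0.0162). Decr1 no longer passed when wild type 1 or 3 or knockout 2 was left out (0.0598 to 0.0636).

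Electron transfer rose throughout, 3 of 3, and its knockout arrays were nearly level. Etfa and Etfb encode the subunits of the flavoprotein that takes electrons from the acyl-CoA dehydrogenases. Etfa went from 10.03, 10.32 and 10.19 to 10.91, 11.04 and 10.93 (0.78 ± 0.12, limma adjusted p = 0.00705). Etfb went from 9.13, 9.18 and 9.30 to 10.05, 10.06 and 10.16 (0.89 ± 0.11, limma adjusted p = 0.00286). Etfdh, the oxidoreductase that hands these electrons to ubiquinone, went from 9.75, 10.31 and 10.10 to 11.07, 11.15 and 11.10. This was a rise of 1.06 ± 0.16, or 2.08-fold (limma adjusted p = 0.0059), with an SD of 0.29 in wild type and 0.04 in the knockout.

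Among the acyl-CoA thioesterases, which split acyl-CoA back to a free fatty acid, Acot2 stood out in size. This mitochondrial long-chain enzyme read 9.38, 9.73 and 9.51 in wild type and 10.67, 11.03 and 10.83 in the knockout, a rise of 1.31 ± 0.15 (2.47-fold, limma adjusted p = 0.00188). Acot13 went from 8.67 ± 0.16 to 9.26 ± 0.05 (0.59 ± 0.12, limma adjusted p = 0.0204), but did not pass when wild type 1 or 3 or knockout 1 or 2 was left out (0.0576 to 0.0759). Acot11, first described as a cold-induced thioesterase of brown fat, read 4.45, 4.34 and 4.41 against 4.61, 4.74 and 5.37. Knockout 3 alone lay far above the rest, and the difference of 0.50 ± 0.20 did not pass (limma adjusted p = 0.154), although it did with repeated quantile normalization (0.69, 0.0482).

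Of the 3 measured genes of ketone use, 1 rose, Oxct1. This transferase, which activates acetoacetate outside the liver, read 8.85, 9.10 and 9.29 in wild type and 9.58, 9.57 and 9.68 in the knockout. It rose by 0.53 ± 0.14 (limma adjusted p = 0.0466), a call lost without any 1 array other than wild type 3 (0.0999 to 0.125) and with repeated quantile normalization (0.0751). Acat1, the thiolase that splits acetoacetyl-CoA and also acts in isoleucine breakdown, read 10.64, 11.05 and 10.74 against 11.38, 11.27 and 11.30. Its difference of 0.50 ± 0.14 did not pass (limma adjusted p = 0.052), but did without wild type 2 (0.62, 0.0298) and with an intensity trend (0.00809). Bdh1, which interconverts hydroxybutyrate and acetoacetate, read 3.10, 3.09 and 2.63 against 2.73, 2.42 and 3.14, so its groups overlapped. The difference was -0.18 ± 0.21 (limma adjusted p = 0.654), and its signal lay near 2.68, the level that a lower 33% of the genes do not reach.

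Propionyl-CoA carboxylase, which takes up the last unit of odd-numbered chains and of some amino acids, rose in both subunits. Pcca read 8.93, 9.06 and 8.96 in wild type and 9.62, 9.66 and 9.60 in the knockout (0.64 ± 0.11, limma adjusted p = 0.00884). Pccb read 8.57, 8.89 and 8.73 against 9.53, 9.66 and 9.60 (0.87 ± 0.12, limma adjusted p = 0.00503). Both kept their call whichever array was left out.

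Whether related members changed by unequal amounts was examined within arrays, as the log2 difference between the genes of 6 pairs. Acadl rose by 0.64 log2 units less than Acadvl. The difference between them was 2.85 to 3.04 in wild type and 2.21 to 2.44 in the knockout. Acot2 gained 0.80 against Acot11 (4.93 to 5.39 in wild type, 5.46 to 6.29 in the knockout), and Pcca changed by -0.23 against Pccb. The groups did not overlap in these 3 pairs, each with an exact two-sided permutation p of 0.1, the smallest that 3 against 3 arrays can give (0.2 adjusted over the 6 pairs). With repeated quantile normalization, Acot2 gained 0.49 against Acot11 and the groups overlapped (exact permutation p = 0.2), whereas Hadha and Hadhb then stood apart (change -0.87, exact permutation p = 0.1). In the values as deposited, the other 3 pairs overlapped. Hadha changed by -0.63 against Hadhb (exact permutation p = 0.2, adjusted 0.24) and Oxct1 by 0.71 against Bdh1 (exact permutation p = 0.2, adjusted 0.24). Etfa changed by -0.11 against Etfb (exact permutation p = 0.4, adjusted 0.4).

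**Figure D2:**
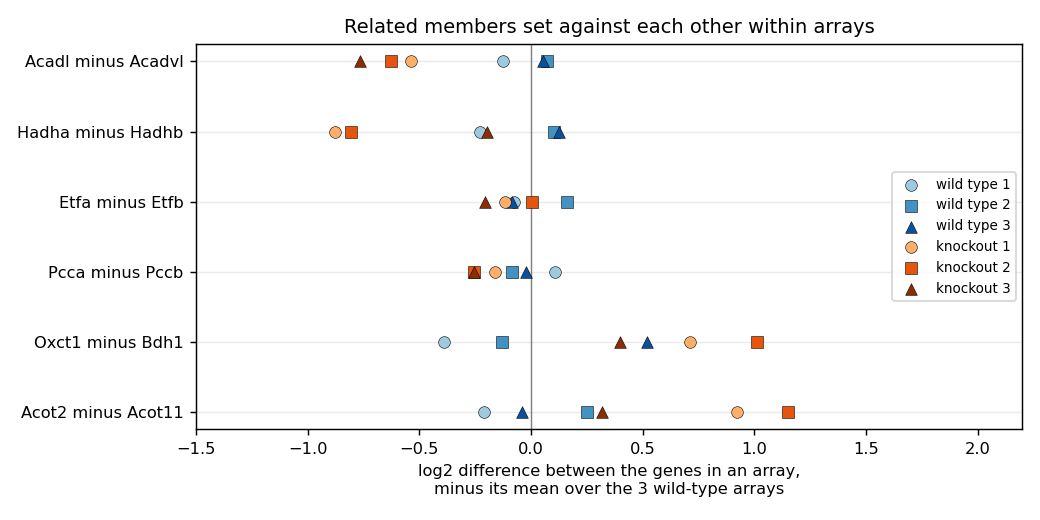
Log2 difference between the genes of each pair within an array, minus its mean over the 3 wild-type arrays, for the 6 arrays (blue, wild type; orange and brown, knockout). The groups are apart for Acadl minus Acadvl, Pcca minus Pccb and Acot2 minus Acot11, and overlap in the other 3 pairs.

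The members were then set against the rest of the mitochondrion, in a comparison added after the values had been seen. Of 24 measured genes for respiratory chain, citric acid cycle, import and other mitochondrial proteins, 19 rose, with a median difference of 0.61. Idh3a rose by 1.06 ± 0.15, Ndufb8 by 1.02 ± 0.15, Cyc1 by 1.01 ± 0.12, Cox5a by 0.99 ± 0.18 and Uqcrc1 by 0.87 ± 0.12. Their mean shift was 0.63. With each array centred on these 24 genes, the median member difference was 0.05, and 8 of 33 members were higher in the knockout, against 0.649% of all genes. These 8 were Slc25a20, Acads, Acadvl, Hadhb, Acaa2, Eci1, Etfdh and Acot2, the members that had at least doubled. Centring took the same 0.63 from the difference of every gene, so the order of the differences did not change. Of the 24 mitochondrial genes themselves, 3 had at least doubled before centring. Acaa2 exceeded the mitochondrial mean by 0.84 ± 0.19 (limma adjusted p = 0.00528), Hadhb by 0.70 ± 0.18 (0.00883) and Acot2 by 0.68 ± 0.15 (0.00426). Slc25a20 and Acadvl exceeded it by 0.63 ± 0.15 (0.00605) and 0.65 ± 0.14 (0.00453). The 3 measured synthetases, Cpt1a and Bdh1 were lower on this scale, as were 72.0% of all genes. Cpt1a differed by -0.71 ± 0.17 (limma adjusted p = 0.00623) and Acsl4 by -1.03 ± 0.13 (0.000566). The remaining 20 members did not pass, among them Acadl at 0.00 ± 0.15 and Hadha at 0.08 ± 0.14.

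**Figure D3:**
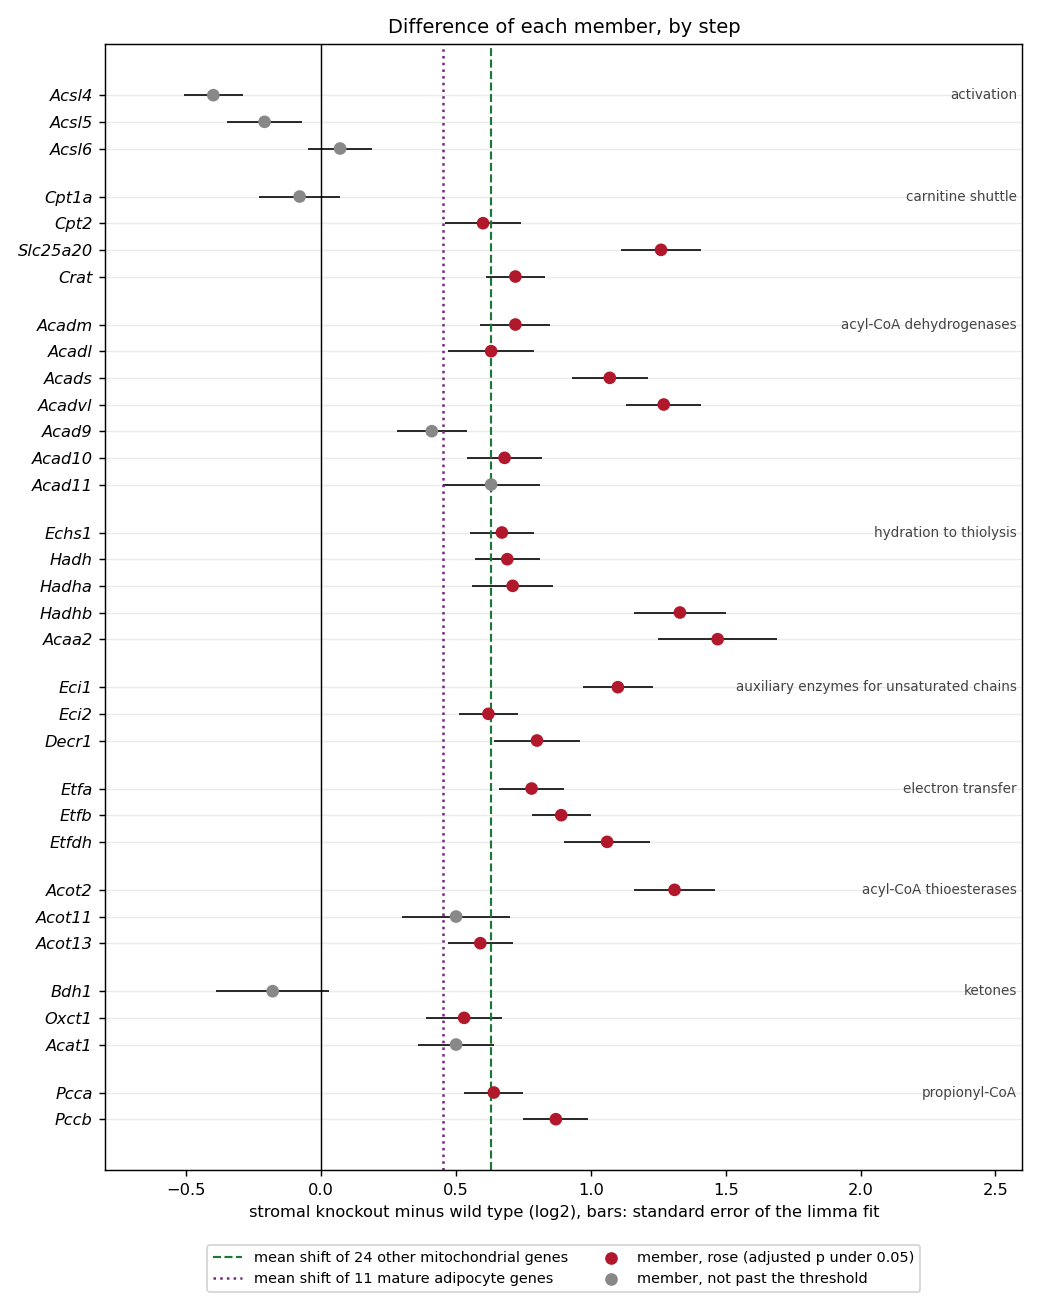
Knockout minus wild type for each measured member on the log2 scale with the standard error of the limma fit, by step (red, rose; grey, not past the threshold). The dashed line at 0.63 is the mean shift of 24 other mitochondrial genes and the dotted line at 0.45 that of 11 mature adipocyte genes; Acaa2 at 1.47 lies farthest to the right and Acsl4 at -0.40 farthest to the left.

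Genes of related pathways and regulators gave a mixed picture. Of 28 measured genes for related steps, some of them for complex I assembly or amino acid breakdown, 14 rose, with a median difference of 0.50. Acss1, which activates acetate in mitochondria, rose by 1.15 ± 0.20 (limma adjusted p = 0.0101), and Slc22a5, the carnitine importer of the plasma membrane, by 1.10 ± 0.13 (0.00213). Acacb, which makes the malonyl-CoA that inhibits carnitine palmitoyltransferase 1, rose by 1.02 ± 0.13 (limma adjusted p = 0.00354). Mlycd, which removes malonyl-CoA, rose by 0.99 ± 0.14 (0.00417). Etfrf1, a regulator of the electron transfer flavoprotein, rose by 0.92 ± 0.15 (0.00809). Of 12 measured peroxisomal oxidation genes, 4 rose: Ehhadh (1.87 ± 0.14), Ech1 (0.98 ± 0.14), Decr2 (0.84 ± 0.12) and Scp2 (0.75 ± 0.12). Ech1 and Scp2 products also occur in mitochondria. Of 17 measured regulators, 8 rose and 1 fell. The coactivators Ppargc1a and Ppargc1b rose 2.82-fold (standard error 0.19 on the log2 scale) and by 1.45 ± 0.18, the lipid-sensing receptor Ppara by 1.69 ± 0.26, and its known targets Pdk4 and Angptl4 by 2.36 ± 0.28 and 1.81 ± 0.30. The 1 that fell was the orphan receptor gene Esrrb (-1.15 ± 0.26, limma adjusted p = 0.0294). Its knockout mean of 2.76 lay near the low level of 2.68 given above. The related gene Esrrg rose by 0.93 ± 0.17 (limma adjusted p = 0.0111).

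Because many of these genes rose together, the 250 bases before each start were searched on both strands for motifs of known regulators. RefSeq windows of GRCm38.p6 were found for 29 of the 36 members, and not for Acaa2, Acad9, Acat1, Acot13, Cpt1b, Crat and Decr1. The nuclear receptor core motif AGGTCA was present in 6 of the 29 (20.7%), against 15.8% of 27025 genes with a window. A direct repeat of AGGTCA with 1 base of any kind between the copies was present in 0 of 29, against 0.0407% of genes. The GC box GGGCGG was present in 18 (62.1%, against 35.4%) and the CCAAT box in 14 (48.3%, against 37.5%). Of the 20 members with a window that rose, 11 had the GC box, a share above the 35.4% of all genes. The CCAAT box was present in 7 of these 20, a share slightly under the 37.5% of all genes. The others with each box include Acsl1 and Acsl3, which were not measured. Member windows had a median GC content of 59.6%, against 52.4% for all windows. A match describes letters only, and AGGTCA occurred before 4 genes that rose and before 2 that did not pass, Acsl6 and Cpt1a. To show this, the 100 bases before the start are given for Acadvl (chr11:70015429-70015528, -), Echs1 (chr7:140116422-140116521, -) and Cpt1a (chr19:3323201-3323300, +), with AGGTCA or its reverse complement in capitals, 5′ to 3′.
Acadvl: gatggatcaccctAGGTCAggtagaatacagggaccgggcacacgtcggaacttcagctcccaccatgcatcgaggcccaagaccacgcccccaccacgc
Echs1: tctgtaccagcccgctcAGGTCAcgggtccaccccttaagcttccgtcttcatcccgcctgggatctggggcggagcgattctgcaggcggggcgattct
Cpt1a: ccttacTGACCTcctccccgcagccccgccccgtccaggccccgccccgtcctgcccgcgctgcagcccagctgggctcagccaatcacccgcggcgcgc
The palindromic motif of the mitochondrial regulator NRF1 was present in 1 of the 29, Etfdh (3.45%, against 0.877% of genes). It is in capitals in the 150 bases before the Etfdh start, chr3:79628768-79628917 (-).
Etfdh: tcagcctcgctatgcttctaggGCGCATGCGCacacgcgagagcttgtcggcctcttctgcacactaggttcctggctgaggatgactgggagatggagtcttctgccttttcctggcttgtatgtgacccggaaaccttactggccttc

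Cell type marker RNA differed between the groups, and its part in the rise of the members was not tested. The summed signal of 11 brown or beige adipocyte markers ran from 9.89 to 11.19 in wild type and from 12.07 to 12.66 in the knockout. Of these, 5 rose: Cidea by 2.40 ± 0.52, Otop1 by 2.12 ± 0.41, Cox7a1 by 2.01 ± 0.36, Cox8b by 1.81 ± 0.28 and Lhx8 by 0.89 ± 0.15. Ucp1, the uncoupling protein of heat production, read 4.88, 8.80 and 7.12 against 9.23, 9.62 and 11.07 (limma adjusted p = 0.0709). Zic1 lay under 2.68 in every array. Elovl3 and Dio2, also induced in active brown fat, differed by -0.67 ± 0.35 and -0.65 ± 0.30, and Prdm16 by 0.42 ± 0.23; their groups overlapped and none of the 3 passed (limma adjusted p = 0.278, 0.22 and 0.308). For 11 mature adipocyte markers, of which 4 rose, the sums were 14.94 to 14.99 and 15.23 to 15.35. Adipoq, Lep and Fabp4 differed by 0.29 ± 0.11, -0.15 ± 0.20 and 0.11 ± 0.11 and did not pass. The 11 markers had a mean shift of 0.45 and a median of 0.29, with the largest differences in Aqp7 (1.36 ± 0.13) and Pck1 (1.30 ± 0.24). All 10 measured luminal epithelial markers fell (sums 11.30 to 11.51 against 8.76 to 9.15), with Krt8, Krt18 and Krt19 at -3.08 ± 0.24, -2.62 ± 0.13 and -3.11 ± 0.26, as did 6 of 9 basal, 4 of 10 fibroblast and 7 of 10 macrophage markers. Krt17 (basal) fell from 4.36 to 2.96. Krt14 (basal) fell by 3.15, Pdgfra and Thy1 (fibroblast) by 1.03 and 1.64, and Adgre1 and Cd68 (macrophage) by 0.92 and 1.22 log2 units. Pdgfrb (-0.38 ± 0.16) and Csf1r (-0.56 ± 0.15) did not pass. The sums were 11.99 to 12.18 against 11.03 to 11.43 for basal, 14.33 to 14.61 against 13.95 to 14.10 for fibroblast and 12.28 to 12.57 against 11.65 to 11.81 for macrophage markers. Of 8 endothelial markers, 3 rose (11.81 to 11.82 against 12.00 to 12.46); Kdr rose by 0.85 ± 0.12, whereas Pecam1 and Cdh5 differed by 0.33 ± 0.14 and 0.52 ± 0.16 and did not pass. The members themselves summed to 14.33 to 14.69 in wild type and 15.20 to 15.31 in the knockout. With each array centred on the 11 adipocyte markers, a comparison also added later, 10 members were higher in the knockout, against 1.21% of all genes. They were the 8 members above the mitochondrial mean together with Etfb and Pccb. This centring took the same 0.45 from the difference of every gene. On that scale Acsl4, Acsl5, Cpt1a and Bdh1 were lower, as were 45.0% of all genes.

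Wild-type arrays were not alike for this pathway. Of the 33 members, 23 had their lowest wild-type value in wild type 1 and 23 their highest in wild type 2, and 20 had both. Ucp1 had the same lowest and highest wild-type arrays. Skeletal muscle markers, 12 in all, summed to 10.26 in wild type 1, 7.74 in wild type 2 and 7.03 in wild type 3, and to 7.06 to 7.12 in the knockout. None of the 12 passed (2 were lower at an unadjusted limma p under 0.05); Acta1, Ckm and Myh1 differed by -0.94 ± 0.85, -0.60 ± 0.61 and -0.76 ± 0.68. Of the 24 members that rose, 19 had a larger SD in wild type (median 0.17) than in the knockout (median 0.08). Without wild type 1 the median member difference was 0.62 and 17 members rose. The 7 that lost their call then were Cpt2, Acadl, Acad10, Hadha, Decr1, Acot13 and Oxct1.

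**Figure D4:**
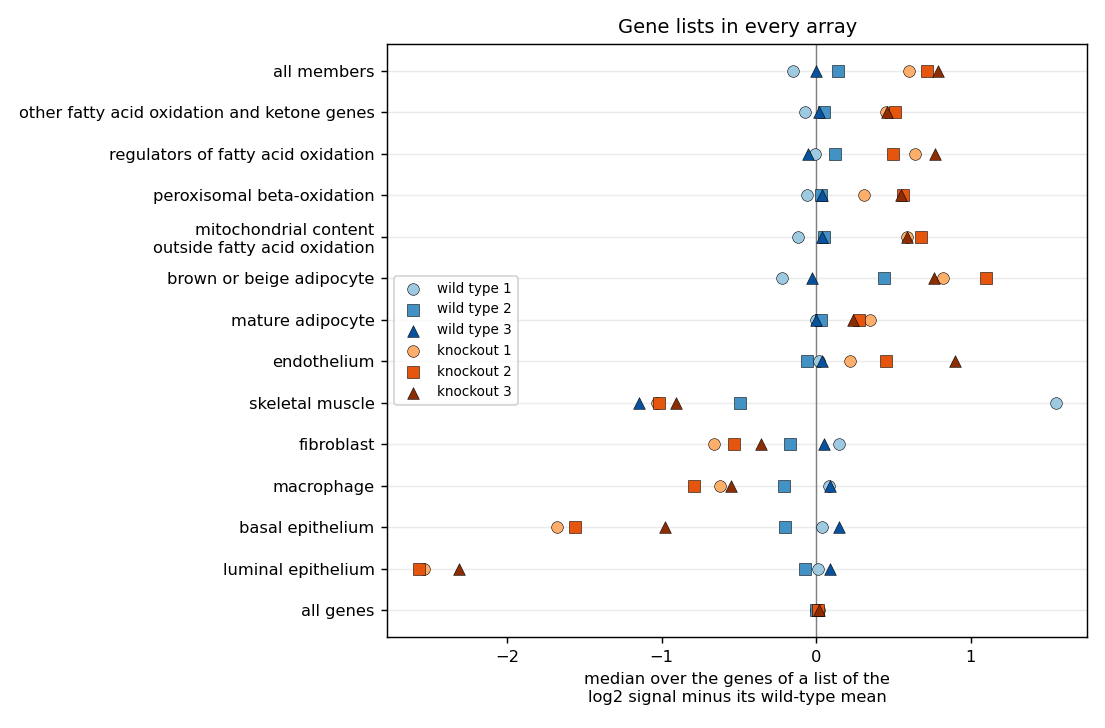
Median over the genes of each list of the log2 signal minus its wild-type mean, for the 6 arrays (blue, wild type; orange and brown, knockout). The members lie at -0.15 to 0.14 in wild type and 0.60 to 0.79 in the knockout; luminal markers lie at -2.57 to -2.31 in the knockout, and skeletal muscle markers at 1.55 in wild type 1.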

How the data were processed

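Total RNA, 400 ng per sample, was hybridised to Affymetrix whole-transcript arrays, per the labels' protocols. The authors deposited normalized log2 values, 1 for every probe set on every array; RMA and limma are named, without versions, in the submitters' processing notes. The log base of 2 was inferred from RMA and the range of values. Of 41345 probe sets, 23521 have 1 gene symbol, which gave 22180 genes. All 6 arrays entered 1 fit (limma 3.58.1, lmFit and eBayes without trend, under R 4.3.3), which was tested on simulated data. The labels call the 3 arrays of a group biological replicates without naming animals or litters, so litter could not be entered in the fit. The p-values set a group difference against the spread between these samples, as moderated by limma over all genes. The number of arrays limits the precision.

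The members and the 12 other lists were chosen with earlier results of these data known. By rule all measured members are named, up to 5 genes of a pathway list by size among those past the threshold, and the first 3 of a marker list where measured. Esrrb, Esrrg, Elovl3, Dio2, Prdm16, Zic1, Otop1, Cox8b, Lhx8, Aqp7 and Pck1 were added after their values were seen. Summed signals are log2 of the sum of linear signals. Promoter windows are from RefSeq, GRCm38.p6. The alternatives left out genes in the lowest 33% by level, used an intensity trend or array weights, repeated the quantile normalization, centred arrays on their medians, averaged probe sets, used a replicate block or left out an array. Centring on other mitochondrial or adipocyte genes was added after seeing the data.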

Additional observations from a re-analysis of the deposited data

How the results depend on the processing

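The median member difference stayed above 0 in every alternative tried, from 0.05 (centred on mitochondrial genes) to 0.87 (centred on array medians), and the fall of Mmp14 passed in all alternatives run on it. With arrays centred on their medians, the median over all genes was 0.22 in place of 0.03, and there were 4333 calls in place of 2717 (3155 rose and 1178 fell, against 1121 and 1596), and Cpt1a and Bdh1, neither of which passed, differed by 0.11 and 0.01. Of the members, 1 (Acsl4) fell with low genes left out, an intensity trend or array weights, with 27, 27 and 26 that rose. Centred on mitochondrial genes, 8 members were higher and 5 lower, with the median at 0.05; centred on adipocyte genes, 10 were higher and 4 lower, with the median at 0.23. With 1 array left out, 16 to 23 members rose, the calls over all genes were 1490 to 2304 (494 to 877 rose, 969 to 1427 fell), 3 to 5 pairs did not overlap, and Cpt1a differed by -0.19 to 0.06. Same-numbered arrays did not deviate together (correlations -0.03, -0.05 and -0.03), so the numbers were not read as pairs; with the replicate block 20 members and 689 of all genes rose, and Cpt2 (adjusted p = 0.0661), Acadl (0.0547), Acot13 (0.0534) and Oxct1 (0.0741) lost their calls. The cause of these shifts was not tested.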
